A study of Mus musculus with 9 samples.

Results

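Transcripts of 10 Wnt ligand genes (Wnt2, Wnt4, Wnt5a, Wnt5b, Wnt6, Wnt7a, Wnt7b, Wnt10a, Wnt10b and Wnt11) were described across 9 mammary tumours of BlgCre-NeuKI mice. The genes were taken by their symbols from the 18484 genes counted in every tumour, which hold 19 Wnt ligand genes in all. The rule used no measured value, but the list was drawn up with earlier results of these data known. All mice were females of a mixed FVB and C57Bl6 background, and all tumours, in every group, carried the same alleles: an activated rat Neu complementary DNA (NeuKI) placed behind a floxed stop cassette in the endogenous Erbb2 locus, and a Cre transgene driven by the beta-lactoglobulin promoter (BlgCre), which acts primarily in luminal cells that lack oestrogen receptor. Tumours were classified by genomic PCR of the Erbb2 locus as high-amplified or not/low-amplified, and by histology. ASQC stands for the metaplastic adenosquamous carcinomas and AC(NST) for adenocarcinomas that show no special type. The amplification label is uncertain for MS1218.2 and MS1213.1, for which digital PCR disagreed with genomic PCR; exome sequencing sided with the label in MS1213.1 and against it in MS1218.2. All 5 tumours with high amplification were AC(NST). Virgin mice gave 3 of them (MS1213.1, MS1163.1, MS1163.2), and mice that had been pregnant gave the other two, MS1218.2 as well as MS1155.3. Every tumour without it was from a parous mouse: 2 were ASQC (MS1210.1, MS1349.1), 1 was an AC(NST), MS1166.1, and 1 was a sarcoma, MS1156.1. Ages of the mice are not given in the labels, and no normal mammary tissue was part of the comparison.

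High amplification was not found in an ASQC, and virgin mice gave no not/low-amplified tumour, so that histotype, parity and amplification status cannot be told apart in several contrasts. Each tumour gave 1 library, with between 12501225 and 23912429 reads counted on genes, and both MS1163 tumours share a mouse number. The summed luminal markers (Krt8, Krt18, Epcam, Elf5 and Kit) lay between 33075 and 106328 normalized counts in the 8 epithelial tumours and at 801 in the sarcoma. The 5 squamous markers summed to 14920 and 2830 in the ASQC and to between 14.8 and 442 in the AC(NST). MS1218.2 stood apart from the other epithelial tumours with the highest sums of fibroblast markers (374435 against 28995 to 114222) and macrophage markers (35138 against 2531 to 11502). It was also the exception to the high tumour purity estimated from RNA for these samples in the methods. A bulk library cannot tell a change in the number of cells of a type from a change in RNA per cell.

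Wnt proteins are secreted, lipid-modified ligands. The acyltransferase Porcn attaches the lipid and Wls carries the ligand to the cell surface, where it binds Frizzled receptors. With the co-receptors Lrp5 and Lrp6 this stabilises beta-catenin and switches on target genes such as Axin2, whereas binding together with Ror or Ryk receptors acts on cell polarity and movement without beta-catenin. In the mammary gland, Wnt4 is made by hormone-sensing luminal cells in response to progesterone and acts on basal cells, Wnt10b promotes growth of the epithelium when overexpressed, Wnt5a restrains ductal growth, and Wnt2 and Wnt6 have been described in the mammary stroma.

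RefSeq promoter sequences (build GRCm38.p6) were matched by symbol for 7 of the 10 genes, and were not matched for Wnt5a, Wnt7b and Wnt10a. Those of Wnt2 and Wnt5b are shown because their counts did not overlap between amplification groups, that of Wnt6 because it did not overlap between histotypes, that of Wnt4 because it was highest in the sarcoma, and that of Wnt11 because it alone held a TCF/LEF match. Each runs 5′ to 3′ in the direction of the gene and ends at the base before the annotated gene start, and capitals mark matches to 4 motifs searched on both strands: the GC box GGGCGG, the TCF/LEF sites CTTTGAA and CTTTGAT, and CCAAT.
Wnt2, chr6:18030586-18030695, minus strand: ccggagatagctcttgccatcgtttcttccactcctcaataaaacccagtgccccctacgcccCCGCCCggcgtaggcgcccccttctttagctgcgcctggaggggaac
Wnt5b, chr6:119544348-119544597, minus strand: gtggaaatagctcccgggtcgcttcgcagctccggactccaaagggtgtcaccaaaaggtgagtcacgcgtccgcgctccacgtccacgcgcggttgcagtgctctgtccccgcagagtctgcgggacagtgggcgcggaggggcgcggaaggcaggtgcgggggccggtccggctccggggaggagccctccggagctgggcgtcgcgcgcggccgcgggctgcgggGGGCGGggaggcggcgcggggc
Wnt6, chr1:74771642-74771891, plus strand: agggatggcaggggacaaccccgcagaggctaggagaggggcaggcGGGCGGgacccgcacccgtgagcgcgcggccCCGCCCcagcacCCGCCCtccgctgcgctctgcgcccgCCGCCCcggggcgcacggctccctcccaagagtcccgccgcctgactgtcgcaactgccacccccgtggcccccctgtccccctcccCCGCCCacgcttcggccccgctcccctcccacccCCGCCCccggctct
Wnt4, chr4:137277385-137277488, plus strand: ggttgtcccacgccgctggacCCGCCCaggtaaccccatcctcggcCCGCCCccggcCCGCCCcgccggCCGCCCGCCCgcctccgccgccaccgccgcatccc
Wnt11, chr7:98834862-98835111, plus strand: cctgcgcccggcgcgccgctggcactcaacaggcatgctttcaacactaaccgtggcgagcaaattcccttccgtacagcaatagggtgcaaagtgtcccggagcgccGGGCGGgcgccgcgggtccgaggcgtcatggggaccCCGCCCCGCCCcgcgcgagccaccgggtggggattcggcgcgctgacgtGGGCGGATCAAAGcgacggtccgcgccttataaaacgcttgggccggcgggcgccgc
All 5 stretches were rich in G and C, at 62.7% for Wnt2, 75.2% for Wnt5b, 79.6% for Wnt6, 83.7% for Wnt4 and 70.8% for Wnt11. The median of all 32851 promoter entries was 52.4% over 250 bases and 50% over the first 110 bases. GC boxes were matched in each of the 5 stretches, from a single match in Wnt2 and in Wnt5b to 6 matches in Wnt6. Of all entries of 250 bases, 32.7% held at least 1. The shorter Wnt4 and Wnt2 stretches are the first 104 and 110 bases of their entries. Over the same first bases of all entries, which are the end farthest upstream, 11% and 11.6% held a GC box. CTTTGAT was found once, on the minus strand of Wnt11, where it overlaps no GC box, and 3.21% of all entries of 250 bases held it. CTTTGAA and CCAAT were found in none of the 5 stretches, compared with 4.46% and 33.8% of all entries of 250 bases. A match is a run of letters, not evidence that a factor bound there.

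Levels of different genes were compared as normalized counts per kilobase of exon, since the merged exons range from 2.192 kb (Wnt6) to 7.823 kb (Wnt5a). On this scale Wnt5a, Wnt5b and Wnt7b made up most of the Wnt ligand RNA of every epithelial tumour, between 65.1% in MS1163.1 and 98.4% in MS1166.1 of the summed level of all 19 ligands, but 8.67% of it in the sarcoma. Wnt5b was the most abundant ligand in MS1213.1, MS1218.2, MS1155.3, MS1210.1 and MS1166.1, Wnt7b in both MS1163 tumours, Wnt5a in MS1349.1 and Wnt6 in the sarcoma. In the AC(NST) MS1166.1 a single gene, Wnt5b, accounted for 95.3% of the ligand level. The summed ligand level ran from 168 normalized counts per kb in MS1163.1 to 2309 in MS1166.1, with 494 in the sarcoma. The members held between 78.6% (MS1163.1) and 99.0% (MS1166.1) of the ligand level, and the rest was that of the other 9 ligand genes. Among these Wnt9a was measured at 36.1 to 216.6 normalized counts in the epithelial tumours, and in MS1163.1 it held 17.4% of the ligand level, more than Wnt5a (11.3%).

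**Figure D1:**
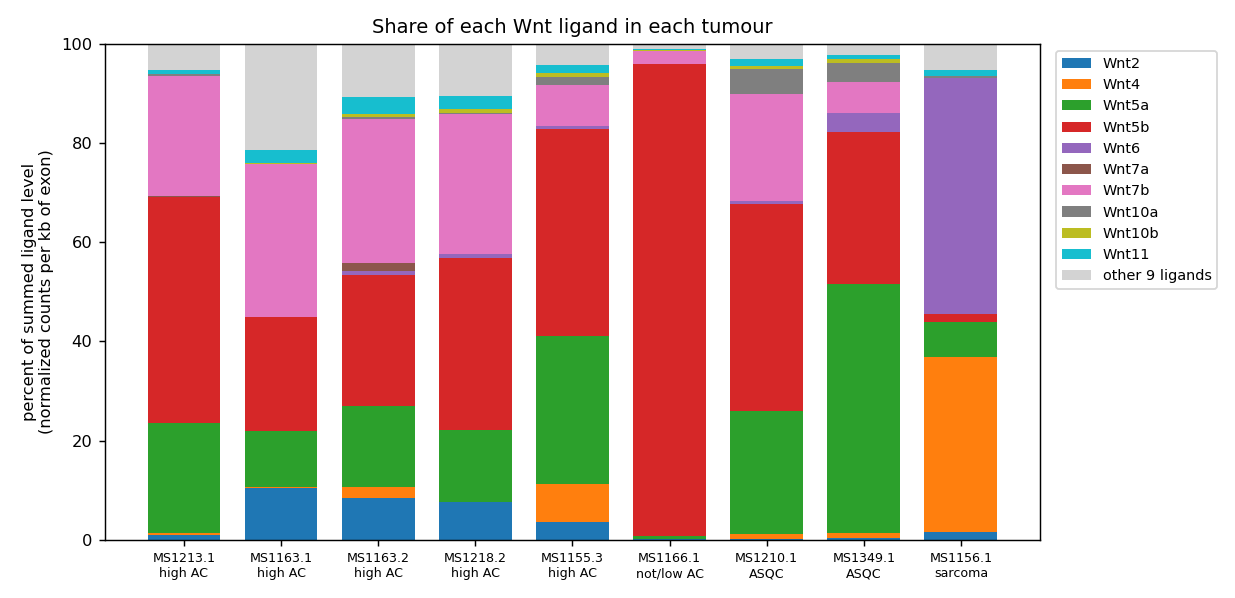
Percent of the summed Wnt ligand level (normalized counts per kb of exon, y axis) held by each ligand in each of the 9 tumours (x axis), 1 stacked bar a tumour. Wnt5a, Wnt5b and Wnt7b fill 65.1% to 98.4% of the epithelial bars and 8.67% of the sarcoma bar, where Wnt6 holds 47.6% and Wnt4 35.3%.

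Without division by exon length, the mean share of Wnt5a in the high-amplified tumours was 33.8% in place of 18.8%, and that of Wnt5b 21.1% in place of 34.4%, so that the order of Wnt5a and Wnt5b depends on the length correction. So did the leading ligand in other cases: without the division Wnt7b (33.4%) led in MS1218.2, Wnt5a led in MS1213.1, MS1155.3 and MS1210.1, and Wnt4 (43.4%) stood above Wnt6 (30.6%) in the sarcoma.

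Wnt5a, Wnt5b and Wnt11 are the ligands best known for signalling without beta-catenin. Wnt5b was measured at 1160, 103, 172, 784 and 415 normalized counts in the high-amplified tumours MS1213.1, MS1163.1, MS1163.2, MS1218.2 and MS1155.3. Among not/low-amplified tumours it was at 1480 and 1183 in the ASQC MS1210.1 and MS1349.1, at 5840 in the AC(NST) MS1166.1, and at 20.9 in the sarcoma. The groups of epithelial tumours did not overlap, but by a narrow margin, since the lowest not/low-amplified epithelial tumour stood 1.02-fold above the highest high-amplified one. MS1166.1 stood 3.95-fold above the next tumour. Averages were 527 ± 443 (SD, n = 5) in high-amplified and 2834 ± 2608 (SD, n = 3) in not/low-amplified tumours. In edgeR's quasi-likelihood fit Wnt5b had a log2 fold change of -2.38 ± 0.78 (SE) in high-amplified tumours, with an adjusted p of 0.127, which does not pass the threshold of 0.05. Without MS1166.1 the log2 fold change was -1.32 (edgeR adjusted p = 0.429), and among the AC(NST) tumours alone, where MS1166.1 is the only not/low-amplified tumour, it was -3.48 (adjusted p = 0.124). Between histotypes Wnt5b had a log2 fold change of -0.06 ± 1.25 (SE).

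Wnt5a was measured at 1664, 149, 312, 956 and 875 normalized counts in the high-amplified tumours in the same order. It was at 2590 and 5728 in the ASQC MS1210.1 and MS1349.1, at 92.8 in MS1166.1 and at 273 in the sarcoma. Both ASQC lay above every AC(NST), and MS1166.1, which had the most Wnt5b, had the least Wnt5a. ASQC averaged 4159 ± 2219 (SD, n = 2) and AC(NST) 675 ± 607 (SD, n = 6), a log2 fold change of 2.62 ± 0.86 (SE) in edgeR with an adjusted p of 0.413. The split by amplification gave a log2 fold change of -1.82 (SE 1.002, edgeR adjusted p = 0.307), and -0.75 without MS1349.1 (adjusted p = 0.727). The direction was the opposite among AC(NST) tumours alone (3.07, adjusted p = 0.259), where MS1166.1 is the only not/low-amplified tumour.

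Wnt11 varied least, 4.90-fold over the 8 epithelial tumours. Its values were 25.0, 18.9, 33.6, 92.6 and 27.1 normalized counts in the high-amplified tumours, 85.8 and 49.0 in the ASQC, 27.4 in MS1166.1 and 23.7 in the sarcoma. MS1218.2 and MS1210.1 were the highest, and the groups overlapped by amplification and by histotype.

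**Figure D2:**
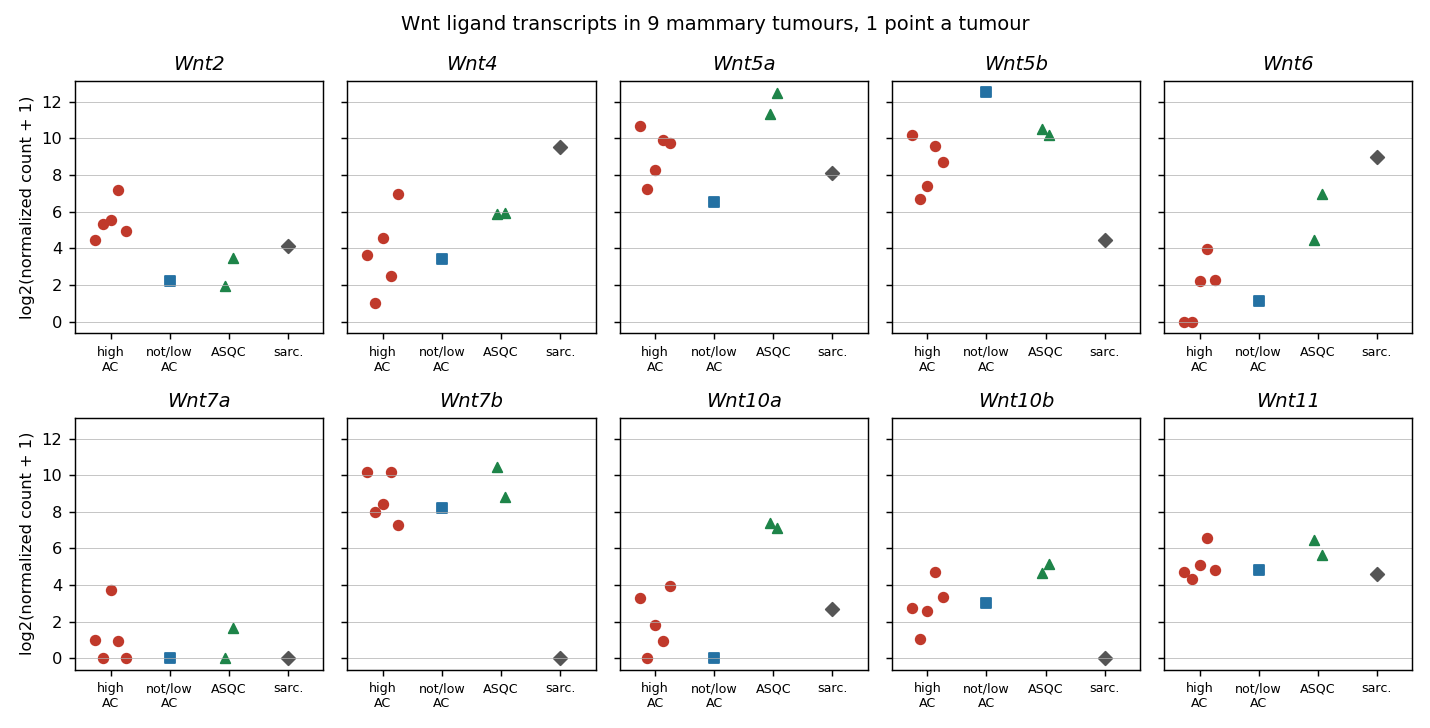
Level of each of the 10 Wnt ligand transcripts, as log2(normalized count + 1) on the y axis, with 1 point a tumour grouped on the x axis as high-amplified AC(NST), not/low-amplified AC(NST), ASQC and sarcoma (sarc.). Wnt10a, Wnt6 and Wnt5a are highest among epithelial tumours in the ASQC, Wnt2 in the high-amplified tumours, and Wnt4 and Wnt6 are highest of all in the sarcoma.

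Wnt2, Wnt4, Wnt6, Wnt10a, Wnt10b and the Wnt7 genes are mostly known for signalling through beta-catenin. Wnt2 was the single ligand whose counts were higher in every high-amplified than in every not/low-amplified tumour. It was measured at 21.2, 39.9, 46.0, 144.4 and 29.6 normalized counts in the high-amplified tumours in the order above, against 2.81 and 10.2 in the ASQC, 3.57 in MS1166.1 and 16.7 in the sarcoma. Before normalization these were 4 and 14 counts in the ASQC and 3 in MS1166.1, so that the low level rests on few counts. The lowest high-amplified tumour stood 2.07-fold above the highest not/low-amplified epithelial tumour. Averages were 56.2 ± 50.2 (SD, n = 5) and 5.54 ± 4.08 (SD, n = 3), a log2 fold change of 3.31 ± 0.89 (SE) with an unadjusted p of 0.00418 in edgeR and an adjusted p of 0.0867, outside the threshold. With MS1218.2 left out the difference was smaller and passed the threshold (log2 fold change 2.59, edgeR unadjusted p = 0.00438, adjusted p = 0.0447). In that fit 1255 of 13816 genes were called, against 129 of 14007 in the fit of all 8 epithelial tumours. With the other tumours left out in turn, the edgeR adjusted p of Wnt2 ran up to 0.219, and it was 0.127 with the tumours of the same mouse summed.

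Fibroblast markers were given beside Wnt2 because Wnt2 has been described in stroma. All 6 markers had at least 10 counts in every tumour. Their sum was 43091 to 374435 normalized counts in the high-amplified and 28995 to 102018 in the not/low-amplified tumours, ranges that overlap. MS1218.2 had the highest Wnt2 and the highest fibroblast sum of the epithelial tumours. The sarcoma had a fibroblast sum of 606111 and 16.7 normalized counts of Wnt2. The part of fibroblast content in the Wnt2 difference was not tested.

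**Figure D3:**
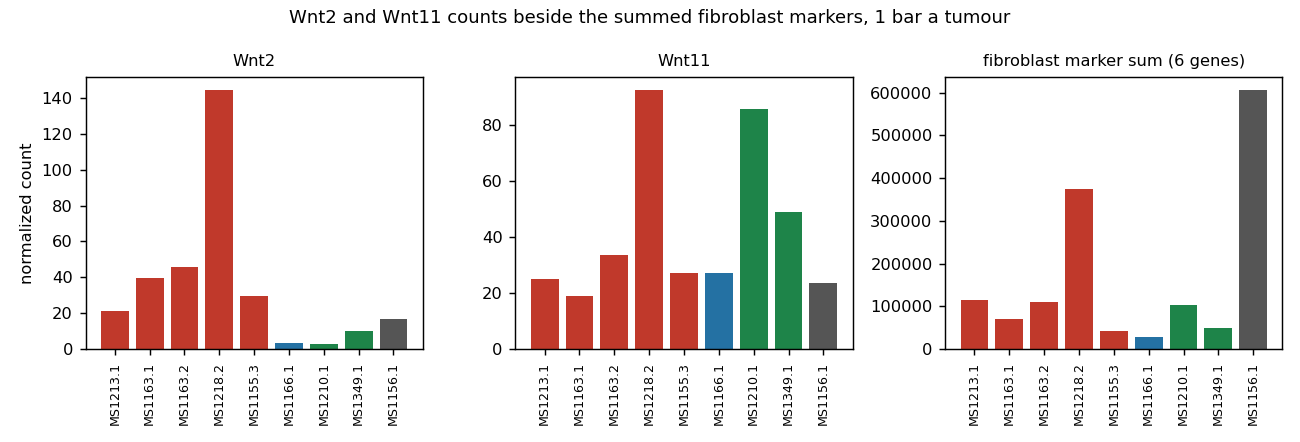
Normalized counts of Wnt2 and Wnt11 and the summed normalized counts of 6 fibroblast markers (y axes), 1 bar a tumour, coloured red for high-amplified AC(NST), blue for not/low-amplified AC(NST), green for ASQC and grey for the sarcoma. MS1218.2 is highest for Wnt2 (144.4) and for Wnt11 (92.6), while the fibroblast sum is highest in the sarcoma (606111).

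Wnt10a was close to the detection limit in most AC(NST). It was measured at 168 normalized counts in MS1210.1 and 137 in MS1349.1, the ASQC, and at 8.67, 0, 2.49, 0.926 and 14.2 in the high-amplified tumours, 0 in MS1166.1 and 5.58 in the sarcoma. The lower ASQC stood 9.69-fold above the highest AC(NST). A count of 0 allows up to 3 counts, which is 3.15 normalized counts in MS1163.1 and 3.57 in MS1166.1. ASQC averaged 153 ± 21.7 (SD, n = 2) and AC(NST) 4.37 ± 5.80 (SD, n = 6), a log2 fold change of 5.10 ± 1.15 (SE) with an unadjusted p of 0.00134 and an adjusted p of 0.178 in edgeR. The log2 fold change was 4.84 to 5.45 in the 5 fits with a tumour left out in which Wnt10a passed the count filter. Both ASQC were kept in each of these fits, because without MS1210.1, MS1349.1 or MS1155.3 Wnt10a did not pass the filter. The range thus does not show how far the difference rests on either ASQC. The sum of squamous markers, 14920 and 2830 in these ASQC, was also the highest in the same tumours, and their part in the Wnt10a level was not tested.

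Wnt6 lies next to Wnt10a on chromosome 1, in the same orientation, with 6.19 kb between them (Wnt6 at chr1:74771892-74785322 and Wnt10a at chr1:74791516-74804179, GRCm38). It was measured at 21.1 and 124.9 normalized counts in the ASQC MS1210.1 and MS1349.1, at 1.19 in MS1166.1, and at 0, 0, 3.73, 14.8 and 3.86 in the high-amplified tumours. Both ASQC lay above every AC(NST), the lower one by 1.42-fold, but Wnt6 was higher in MS1349.1 and Wnt10a in MS1210.1. The log2 fold change in ASQC was 4.16 ± 1.22 (SE), with an edgeR adjusted p of 0.316. In the sarcoma Wnt6 was at 516 and Wnt10a at 5.58 normalized counts, so that a high Wnt6 count was not accompanied by a high Wnt10a count there.

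Wnt4, the progesterone-responsive ligand, was measured at 11.6, 1.05, 22.4, 4.63 and 122.4 normalized counts in the high-amplified tumours, 57.0 and 59.9 in the ASQC and 9.52 in MS1166.1. It thus spanned 117-fold, with MS1155.3 highest and MS1163.1 lowest, with a log2 fold change of -0.39 ± 1.21 (SE) by amplification and 1.04 ± 1.27 (SE) by histotype. MS1155.3 decided these values, since without it the log2 fold changes of Wnt4 were -2.10 (edgeR adjusted p = 0.286) and 2.58 (adjusted p = 0.525). Wnt10b was measured at 5.78, 1.05, 4.97, 25.0 and 9.02 in the high-amplified tumours, 23.9 and 35.1 in the ASQC and 7.14 in MS1166.1, with MS1218.2 in the range of the ASQC. Wnt10b had a log2 fold change of 1.72 ± 0.87 (SE) in ASQC, with an edgeR adjusted p of 0.616.

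Wnt7b, a ligand of epithelial cells, was abundant in all 8 epithelial tumours, at 1136, 254, 348, 1174 and 155 normalized counts in the high-amplified tumours, 1405 and 445 in the ASQC and 295 in MS1166.1. No group stood apart, with a log2 fold change of -0.20 ± 0.75 (SE) by amplification and 0.71 ± 0.78 (SE) by histotype. Wnt7a reached 10 counts in 1 tumour, MS1163.2, at 12.4 normalized counts, was at or below 2.19 in the others, and did not pass the filter on counts. In the fits without that filter its edgeR adjusted p was 0.550 by amplification, 0.882 by histotype and 0.787 by parity.

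The sarcoma, of which there was a single tumour and hence no test, held a different set of ligands. Wnt4 was at 732 normalized counts (Wilson 95% interval 672 to 798, for counting error only), 5.99-fold above the highest epithelial tumour, and Wnt6 was at 516 (466 to 571), 4.13-fold above. Wnt7a, Wnt7b and Wnt10b had no counts there, which for Wnt7b allows up to 4.19 normalized counts, at least 36.9-fold below the lowest epithelial tumour. Wnt7a also had 0 counts in 4 epithelial tumours, and Wnt10b was at 1.05 normalized counts in MS1163.1. Of these genes, only Wnt7b set the sarcoma apart. Wnt5b was 4.91-fold below the lowest epithelial tumour, while Wnt5a, Wnt2 and Wnt11 lay within the epithelial range. Skeletal muscle markers were also high in the sarcoma, at 13117 normalized counts against 3.52 to 2360 in the epithelial tumours, and their part in the Wnt4 and Wnt6 levels was not tested.

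Across all genes, 129 of the 14007 genes tested passed an adjusted p of 0.05 and a fold change of 2 between high-amplified and not/low-amplified tumours in edgeR (0.921%), and 33 did so between ASQC and AC(NST) (0.236%). None of the 9 Wnt ligands tested, the 10 without Wnt7a, was among them in either comparison. At an unadjusted p under 0.05, 4 of the 9 ligands differed by amplification (Wnt2, Wnt5b, Wnt6 and Wnt10a), where 22.8% of all genes did, and 3 by histotype (Wnt5a, Wnt6 and Wnt10a), where 8.72% of all genes did. DESeq2, run on the same genes, called 3 ligands by amplification (Wnt2, adjusted p = 0.00187, Wnt5b, 0.0217, and Wnt10a, 0.0293), against 10.6% of all genes, and 1 by histotype (Wnt10a, 0.00400), against 2.69%. In the not/low-amplified AC(NST) MS1166.1, Wnt6 (1.19 normalized counts) and Wnt10a (0) lay within the high-amplified range, and only the ASQC stood above it. The fits by either program counted MS1163.1 and MS1163.2 as separate tumours. Summing the tumours of the same mouse gave edgeR adjusted p values by amplification of 0.127 for Wnt2, 0.180 for Wnt5b and 0.190 for Wnt10a. Among epithelial tumours, counts that did not overlap were found for 2 of the 9 ligands by amplification, where 15.6% of genes did not overlap, and for 3 by histotype, where 10.3% did not. Wnt6, Wnt10a and Wnt10b passed the filter on counts with 3 tumours each, so these counts describe the ligands and are not a test of the family.

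**Figure D4:**
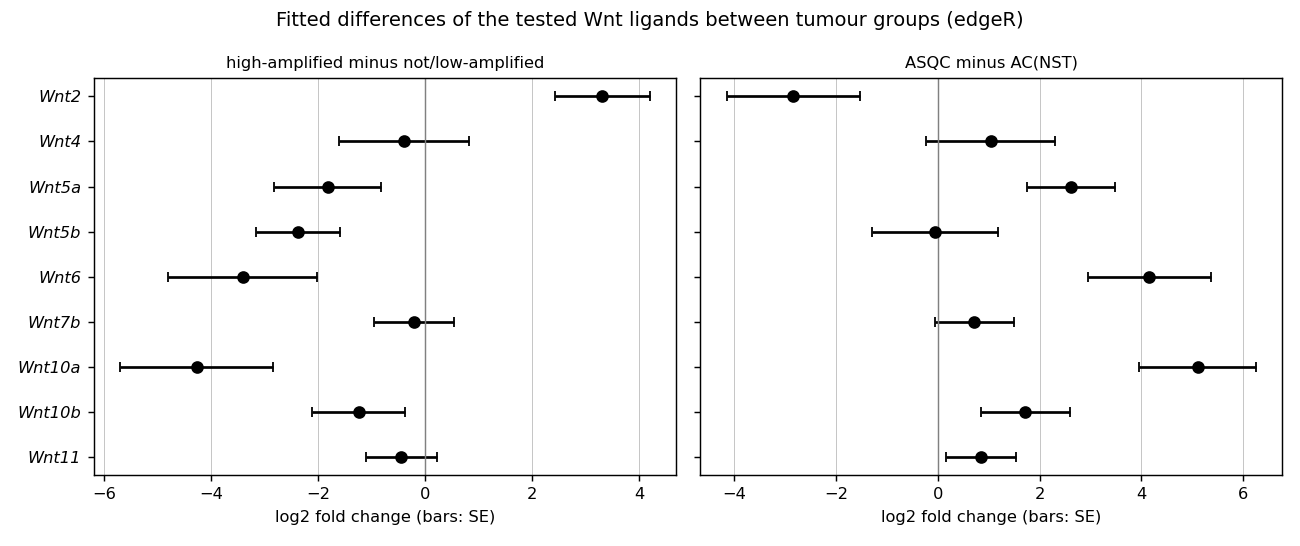
Log2 fold change of the 9 tested Wnt ligands (x axis, points, with SE as bars) in edgeR's fits of high-amplified minus not/low-amplified tumours (left, 5 against 3) and ASQC minus AC(NST) (right, 2 against 6). Wnt2 is the only point above 0 on the left, at 3.31, and Wnt10a lies farthest from 0 on the right, at 5.10; none passed an adjusted p of 0.05.

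Within the high-amplified tumours, parity was compared between 3 tumours of virgin and 2 of parous mice. Of 13472 genes tested, 0 were called by edgeR (0%), 857 had an unadjusted p under 0.05 (6.36%), and DESeq2 called 56 (0.416%). None of the 6 ligands tested was called by edgeR or by DESeq2, and none had an unadjusted p under 0.05. Without MS1213.1, the virgin tumours were MS1163.1 and MS1163.2, which share a mouse number, so that p-values hold no spread between virgin mice. In that edgeR fit the log2 fold change was -2.04 for Wnt5a (unadjusted p = 0.00526) and -2.18 for Wnt5b (unadjusted p = 0.00558). Both had an adjusted p of 0.659, and 977 of 13141 genes had an unadjusted p under 0.05. With the tumours of the same mouse summed, the log2 fold changes were 0.022 for Wnt5a and 0.082 for Wnt5b. Without MS1218.2, MS1155.3 was the only parous tumour, and the log2 fold change of Wnt4 was -3.40. Without MS1155.3, MS1218.2 was the only parous tumour, and the log2 fold change was -1.98 for Wnt2 and -1.80 for Wnt11. In the fit of all high-amplified tumours, the largest difference was that of Wnt4, with a log2 fold change of -2.45 ± 1.35 (SE, edgeR adjusted p = 0.727) in tumours of virgin mice.

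The other genes of the pathway were described from fixed lists of 67 genes. Of these, 4 were called. Axin2, the negative regulator induced by beta-catenin, was called in both comparisons. It was measured at 4341 and 5250 normalized counts in the ASQC, 328 in MS1166.1, 43.0 to 158 in the high-amplified tumours and 586 in the sarcoma. Its log2 fold change was 5.10 ± 0.58 (SE, edgeR adjusted p = 0.0154) in ASQC and -4.98 ± 0.78 (SE, adjusted p = 0.0296) in high-amplified tumours.

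Wif1, which binds and blocks Wnt ligands, was at 1507 and 931 normalized counts in the ASQC and at 0.963 to 21.1 in the AC(NST), with an edgeR adjusted p of 0.0211. The receptor gene Fzd10 was at 261 and 216 in the ASQC and at 1.24 to 16.7 in the AC(NST) (adjusted p = 0.0303), and Apcdd1, a membrane inhibitor of the pathway, at 959 and 3312 against 53.5 to 301 (adjusted p = 0.0410). Of 11 feedback and target genes, 10 were tested, and their median log2 fold change was 2.55 in ASQC, beside -0.08 over all genes, with 2 called higher (Axin2 and Apcdd1) and 0 called lower. Of 16 receptors 1 was called higher, of 8 secreted inhibitors tested 1, and of 9 transducers, 4 R-spondins and their receptors, 3 ligand processing genes and 3 other ligands tested, 0. By amplification the median of the feedback and target genes was -2.24, beside 0.02 over all genes, and Axin2 was the single gene of any list called. With each of the 8 tumours left out in turn, edgeR called Axin2 in 5 of 8 fits by histotype (largest adjusted p = 0.0891) and in 2 of 8 by amplification (0.0808), Wif1 in 4 (0.116), Fzd10 in 2 (0.247) and Apcdd1 in 2 (0.466). With the tumours of the same mouse summed, Axin2 was not called by amplification (adjusted p = 0.0654) nor Apcdd1 by histotype (0.110). Axin2 was also not called by amplification with parity as a covariate (log2 fold change -5.16, edgeR adjusted p = 0.185) or in parous tumours alone (-5.12, 0.355). With amplification status as a covariate none of the 4 genes was called by histotype (Axin2, log2 fold change 3.91, edgeR adjusted p = 0.203). Each of these fits called 0 of all genes tested. Among AC(NST) alone, Axin2 had a log2 fold change of -1.67 by amplification (adjusted p = 0.243). All 4 called genes were highest among epithelial tumours in the same 2 ASQC as Wnt10a, Wnt6 and Wnt5a, in tumours that also hold the squamous markers.

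**Figure D5:**
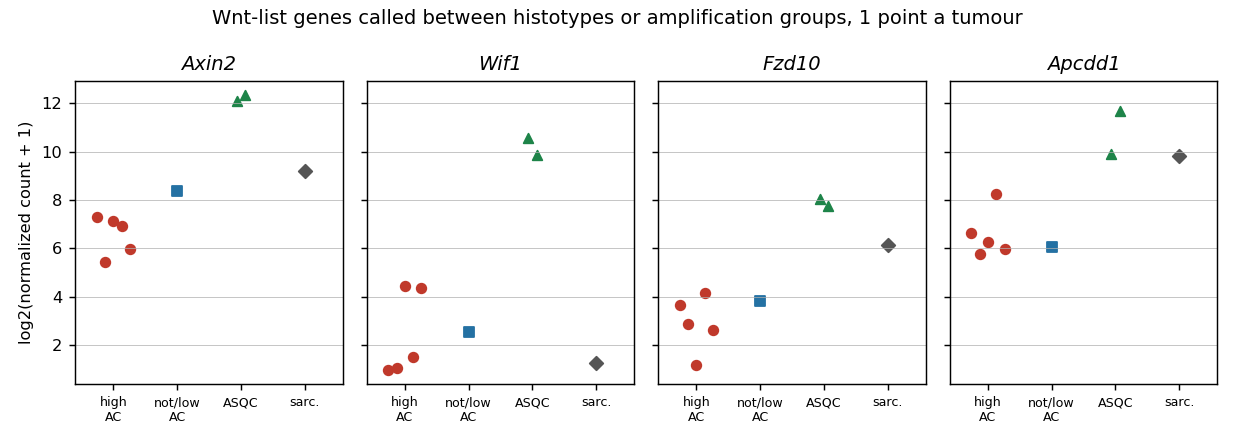
Level of the 4 called genes of the fixed Wnt lists, as log2(normalized count + 1) on the y axis, with 1 point a tumour in the groups on the x axis. The 2 ASQC lie above all AC(NST) tumours for each gene.

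Of the genes that release Wnt ligands, Porcn and Wls were measured in every tumour, at 60.5 to 313 and 2557 to 4766 normalized counts in the epithelial tumours, and neither passed the threshold. Trabd2b, a protease that inactivates Wnt ligands, was at 251 to 930 in the high-amplified and 13.1 to 142 in the not/low-amplified tumours, with a log2 fold change of 2.73 ± 0.75 (SE, edgeR adjusted p = 0.0906). Notum, which removes the lipid from Wnt ligands, was at 539 and 250 in the ASQC and at or below 6.44 in the AC(NST). It did not pass the filter on counts and was chosen for mention after its values were seen.

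The genes whose pattern over the 8 epithelial tumours was most like that of a ligand were Engase and Il1b for Wnt5a (Pearson's r of log2 values 0.979 for both), Misp (0.987) and Ptger4 (0.972) for Wnt5b, and Antxr1 (0.939) and Pappa (0.938) for Wnt7b. They were ranked among 12212 genes with a mean of at least 50 normalized counts, a limit the remaining ligands did not reach. With 8 tumours and this many genes, such values are a description of shared ordering.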

How the data were processed

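RNA of 9 snap-frozen tumours was depleted of ribosomal RNA, made into libraries with a strand-specific kit and sequenced in pairs. Per the methods, the authors aligned reads to mouse build 38 keeping unique positions, and counted them per gene with HTSeq to give the deposited counts; the strand setting of the counting is not stated, so that reads of Wnt5a, Wnt7b and Wnt11 cannot be told from those of opposite-strand neighbours that share exon bases with them. The deposited signal values of the 8 epithelial tumours are these counts divided by 1 size factor per tumour by the authors; recomputed median-of-ratios factors matched them (largest relative difference 5.1e-10). Sarcoma counts were divided by a factor computed against the epithelial tumours. Cufflinks values were not used here.

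Counts were tested with edgeR 4.0.16 (TMM, quasi-likelihood, Benjamini-Hochberg adjustment) under R 4.3.3 over genes that reached 10 counts in 3 or more tumours; called means adjusted p under 0.05 and a fold change over 2. The SE of an edgeR log2 fold change was taken as its absolute value divided by the square root of the quasi-likelihood F statistic. DESeq2 1.42.0 was an alternative, beside other filters, scaling, covariates, subsets and each tumour left out. Levels per kb used merged exons of GENCODE M21. Tables and figures used Python 3.11.15, pandas 2.3.3, numpy 2.4.6 and matplotlib 3.10.9. Fits were tested on simulated data. Tumours are the replicates, and p-values measure the spread between them. MS1163.1 and MS1163.2 share a mouse number and count as separate tumours, except where the tumours of the same mouse were summed.

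All 10 ligands are named, with every called gene of the Wnt lists and the 2 genes most like each ligand with a mean of at least 50 normalized counts. The ligands and lists were chosen with earlier results of these data known. Intervals and limits of 3 counts cover counting error only.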

Additional observations from a re-analysis of the deposited data

Results flagged for a closer look

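In 20 groups of values (10 ligands, in the 5 high-amplified and in the 6 AC(NST) tumours, on the log2 scale), 3 had a tumour far from the others by Dixon's gap ratio, where chance flags about 1 group in 20, and the 2 sets of tumours overlap. Wnt7a in MS1163.2, at 12.4 normalized counts, had a ratio of 0.74 among both the high-amplified and the AC(NST) tumours, and the same tumour had the highest skeletal muscle (2360 normalized counts) and adipocyte (2072) marker sums of the epithelial tumours; their part in the Wnt7a level was not tested. Wnt11 in MS1218.2, at 92.6 normalized counts, had a ratio of 0.643 among the AC(NST) tumours, and the same tumour had the highest fibroblast, endothelial and macrophage marker sums of the epithelial tumours; their part in the Wnt11 level was not tested.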

How the results depend on the processing

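No paired analysis was possible because the replicate numbers follow accession order and mark no shared animal across groups. By amplification, the 129 genes called by edgeR became 1489 with DESeq2, 229 without a filter on counts, 31 with the tumours of the same mouse summed, 40 in AC(NST) alone, 0 with parity as a covariate and 0 in parous tumours alone, and 1 to 1255 with a tumour left out (1255 without MS1218.2 and 1 without MS1210.1). By histotype, the 33 genes became 377 with DESeq2, 171 without a filter, 149 with 10 counts in 2 tumours, 18 with the tumours of the same mouse summed, 0 with amplification status as a covariate, 1 in parous tumours alone, and 4 to 84 with a tumour left out (4 without MS1349.1 and 84 without MS1166.1). By parity, the 0 genes became 56 with DESeq2 and 1 without a filter. The 0 ligands called became 3 by amplification and 1 by histotype with DESeq2, and 0 to 1 by amplification with a tumour left out (Wnt2 without MS1218.2). The causes were not tested.

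Reversed directions were found for Wnt2, Wnt4, Wnt5a, Wnt5b, Wnt7b and Wnt11. By amplification, AC(NST) alone gave log2 fold changes of 0.51 for Wnt11, 1.71 for Wnt4, 3.07 for Wnt5a and 1.04 for Wnt7b, parity as a covariate 0.16 for Wnt11 and 0.59 for Wnt4, and parous tumours alone 0.20 for Wnt11 and 0.62 for Wnt4. With a tumour left out, Wnt11 ran from -1.04 to 0.063 and Wnt7b from -0.58 to 0.74 by amplification, and Wnt5b from -0.31 to 1.32 and Wnt7b from -0.37 to 1.32 by histotype. By parity, Wnt2 ran from -1.98 to 0.26, Wnt5a from -2.04 to 0.13, Wnt5b from -2.18 to 0.22 and Wnt7b from -1.21 to 1.91 with a tumour left out, and with the tumours of the same mouse summed Wnt5a was at 0.022, Wnt5b at 0.082 and Wnt7b at 0.065. Wnt2 by histotype was 0.89 with amplification status as a covariate. The sarcoma values of Wnt4 and Wnt6 were 706 and 497 with size factors over 9 tumours.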
